A study of Homo sapiens with 4 samples.

Results

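The AP-1 and EGR immediate early factors are 10 genes, FOS, FOSB, FOSL1, FOSL2, JUN, JUNB, JUND, EGR1, EGR2 and EGR3, which were taken from the arrays by gene name. They had 11 probes of 47229, with 1 probe per gene except EGR3, which had 2. They were selected by name with the ratios of GANT61 over DMSO on these same arrays already known, so their levels and ratios are given as a description, with no test. Gene expression was measured in 2 established human cell lines, ES2 and H4, on Illumina BeadChip arrays that read the amplified RNA of a whole culture. ES2 comes from an ovarian tumour, commonly described as clear cell carcinoma. H4 is commonly described as a neuroglioma line, although its label names the ovary as it does for ES2. In each line, 1 culture received the solvent DMSO and 1 received 20 µM GANT61, and all 4 arrays were made after 48 h. GANT61 inhibits GLI1 and GLI2, the transcription factors of Hedgehog signalling, and the series title links inhibition of that pathway to cancer cell growth and autophagy.

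AP-1 is a pair of basic leucine zipper proteins, usually a FOS family protein bound to a JUN family protein, that recognises short DNA elements in genes of growth, invasion and inflammation. The EGR proteins are zinc finger transcription factors that bind GC-rich elements. Transcription of most of these genes starts within minutes of a growth factor or stress signal, through ERK, JNK and p38 kinases and serum response factor, and then subsides, whereas FOSL1 and JUND are known for more lasting expression.

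With 1 array per line and treatment there was no replicate, standard error or p-value, precision is set by how few arrays there are, and no source says that the cultures were grown independently. Levels are the authors' deposited intensities. Ratios are differences of log2 signals after background correction and quantile normalization over the 4 arrays. A probe was called detected on an array at a detection p-value under 0.01, and since the files do not say which detection column belongs to which treatment, detection is given as the number of a line's 2 arrays. Detection reached 16505 probes on at least 1 ES2 array and 15219 on at least 1 H4 array. Over these probes the log2 ratios of GANT61 over DMSO had an SD of 0.20 in ES2 and 0.586 in H4. As a measure of spread between probes, the SD between probes of the same gene was 0.143 in ES2 (2545 genes) and 0.222 in H4 (1993 genes). Probes of a gene share the same arrays, so this SD leaves out differences between cultures, RNA preparations or arrays. Lineage markers gave a mixed picture. Of 9 Müllerian and epithelial markers, ES2 detected 3 on both arrays (KRT7, KRT8 and KRT18) and H4 detected 1 (KRT18). Of 10 glial and neural markers, ES2 detected 2 and H4 detected 4, with OLIG2 and NCAM1 among the latter and GFAP in neither line. In whole cultures, fewer cells that express a gene and less RNA per cell cannot be told apart.

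Detection split the family. In ES2, 6 of the 11 probes were detected on both arrays (FOS, FOSB, FOSL1, JUN, JUND and EGR1), 1 on a single array (JUNB) and 4 on neither. In H4, 3 probes were detected on both arrays (JUN, JUND and EGR1), 2 on a single array (FOSB and FOSL1) and 6 on neither. FOSL2, EGR2 and EGR3 were detected on no array. At least 2-fold differences with GANT61 were found for 1 detected member probe of 7 in ES2 and 3 of 5 in H4. The background shares over all detected probes were 0.0545% in ES2 and 7.42% in H4. When single-array detections counted only at their lower bound, the H4 count was 2, and the background share was 5.91%.

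**Figure D1:**
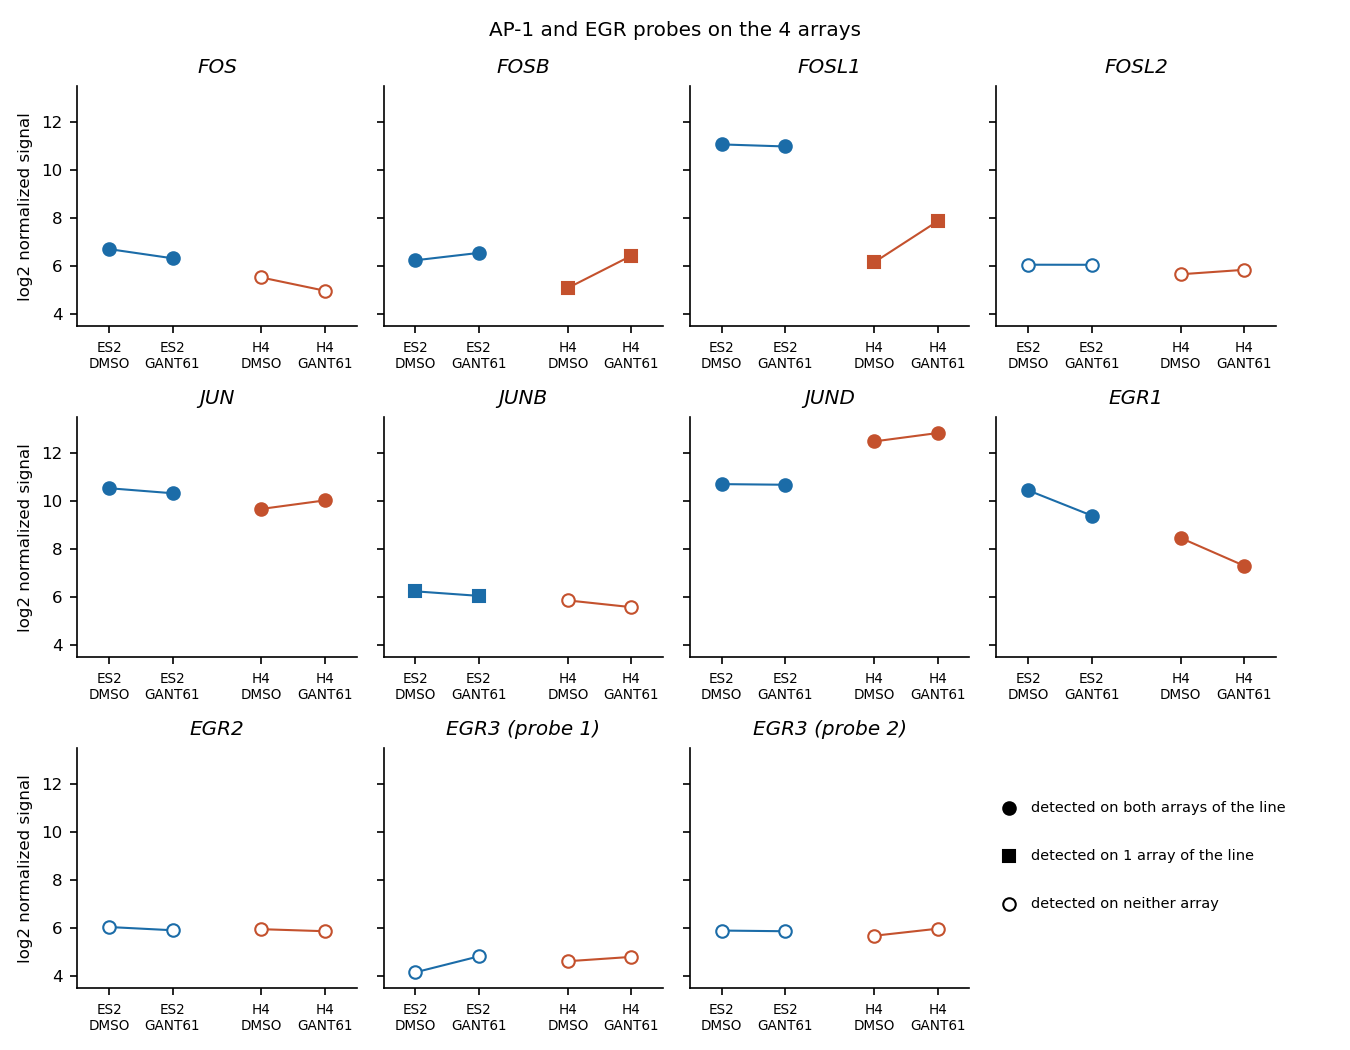
The log2 normalized signal of each of the 11 probes is plotted on the vertical axis for the 4 arrays, 1 point per array, with lines joining DMSO and GANT61 of a cell line; marker shape and fill give the number of the line's arrays that detected the probe. EGR1 is lower with GANT61 in both lines, FOSL1 and FOSB are higher with GANT61 in H4, and levels of different probes are not comparable.

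EGR1, the zinc finger factor best known as an early readout of ERK signalling, was lower with GANT61 in both lines. Its intensity was 1607 in ES2 cells with DMSO and 784 with GANT61, and 366 in H4 cells with DMSO and 201 with GANT61. The GANT61 array was thus the lower one in each line, and both ES2 arrays lay above both H4 arrays. On the normalized log2 scale the ratios were -1.05 in ES2 (2.07-fold lower) and -1.16 in H4 (2.23-fold lower). Counted from the lowest, EGR1 ranked 3 of 16505 detected probes in ES2 and 342 of 15219 in H4. Shares of 0.0242% of the detected probes in ES2 and 3.48% in H4 were at least 2-fold lower. The difference between the lines' ratios, H4 minus ES2, was -0.11 and smaller than the spread between probes.

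EGR1 was also the single gene at least 2-fold lower with GANT61 in both lines, out of 10229 genes that both lines detected on 1 array or more (0.00978%). The genes at least 2-fold higher in both lines were MMP3, a matrix metalloproteinase, and the 5S ribosomal RNA gene RNA5S9 (0.0196%). In ES2, 0 other genes of the 10229 had a ratio as low as that of EGR1. That lowest place in ES2, among genes measured in both lines, held under every scaling, unlike the 2-fold mark in both lines. Without background correction the EGR1 ratios were -1.01 in ES2 and -0.99 in H4, and on the authors' own scale they were -1.03 and -0.87. On both scales no gene was at least 2-fold lower in both lines. Under each of the 5 ways of scaling, 0 other genes measured in both lines were as low as EGR1 in ES2. That by itself makes the count for both lines 0. In H4, EGR1 ranked 342 from the lowest of 15219 detected probes.

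**Figure D2:**
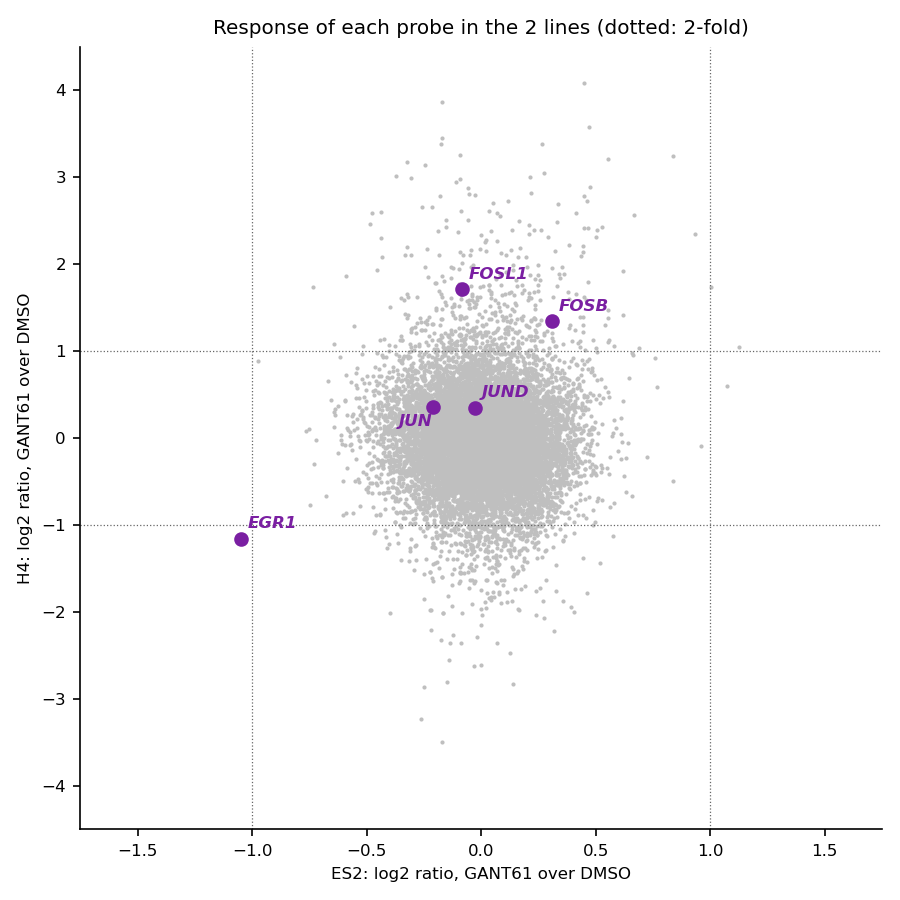
Each point is a probe that both lines detected on 1 array or more, with its log2 ratio of GANT61 over DMSO in ES2 on the horizontal axis and in H4 on the vertical axis; members are in purple and dotted lines mark 2-fold. EGR1 stands alone in the lower left, at -1.05 and -1.16, while FOSL1 and FOSB lie above the 2-fold line in H4 alone.

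The window around the start of EGR1 is shown because serum response factor and cAMP-responsive factors are known to act on it. It covers 250 bases before to 50 after the RefSeq start site on the plus strand at chr5:138465229-138465528 (GRCh38.p14). The capitals mark, on either strand, CArG boxes (the serum response factor element), TGACGT (the core of the cAMP response element) and GCGNGGGCG (the EGR element).
EGR1: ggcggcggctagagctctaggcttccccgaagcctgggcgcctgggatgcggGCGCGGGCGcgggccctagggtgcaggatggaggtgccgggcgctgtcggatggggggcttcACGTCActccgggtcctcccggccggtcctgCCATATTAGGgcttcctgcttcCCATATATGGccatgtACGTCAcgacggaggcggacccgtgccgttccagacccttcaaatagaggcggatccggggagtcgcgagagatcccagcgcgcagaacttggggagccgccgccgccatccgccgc
The EGR1 window held 2 CArG boxes, starting 105 and 83 bases before the start site, 2 TGACGT cores, starting 136 and 67 bases before it, and 1 EGR element. No match overlapped another. A CArG box occurs in 1.29% of the 35116 RefSeq windows of this length, TGACGT in 7.98% and GCGNGGGCG in 9.43%. FOSL1 and EGR3 were left out of the search, which covered windows of 8 of the 10 members. CArG boxes were in the windows of 2 of these (EGR1 and EGR2), and TGACGT was in those of 6, with a pair of overlapping TGACGT matches in JUND. Sites more than 250 bases before the start site were not searched, so a member without a match may hold 1 further upstream. The GLI element TGGGTGGTC, found in 0.236% of all windows, matched in none of the 8.

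EGR2 and EGR3, relatives of EGR1 with the same type of DNA-binding domain, gave no measurable level. EGR2 intensities were 86.8 and 80.8 in ES2 and 120 and 117 in H4, DMSO before GANT61. The lowest intensity of a probe detected on both arrays was 88.4 to 89.9 in ES2 and 130 to 137 in H4. The EGR3 probes lay at 46.2 to 80.3 in ES2 and at 73.7 to 121 in H4, so no direction is read from them. EGR4, the remaining member of the family, was detected on no array either. The co-repressors that bind EGR proteins were measured in both lines. NAB1 had a log2 ratio of 0.08 in ES2 and -0.64 in H4 (1.55-fold lower), and NAB2, itself a target of EGR factors, had -0.25 and -0.16.

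FOSL1, which encodes Fra-1, the FOS family protein linked to invasive tumour cells, set the lines apart. Its intensity was 2529 in ES2 with DMSO and 2375 with GANT61, against 129 in H4 with DMSO and 266 with GANT61. Both ES2 arrays were far above both H4 arrays, and within H4 the GANT61 array was the higher one. The log2 ratio was -0.08 in ES2 and 1.71 in H4 (3.27-fold higher). Since FOSL1 was detected on 1 H4 array, its difference there is a bound, which was 3.22-fold on the normalized scale but at least 2.05-fold on the authors' scale. The detection p-value of the other H4 array was 0.0130. It ranked 156 from the highest among the 15219 detected H4 probes, of which 3.95% were at least 2-fold higher. On the authors' scale the H4 ratio was 1.04 (2.06-fold higher). In DMSO, with H4 held at its detection floor, ES2 exceeded H4 for FOSL1 by at least 19.5-fold on the authors' scale, a bound that was 29.5-fold on the normalized scale. In GANT61 the normalized difference was 8.63-fold. The authors normalized the lines separately, and a level set across the lines rests on the later joint normalization.

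FOSB, the FOS family gene known for stable variants after repeated stimulation, was dim. Its intensity was 98.2 and 121 in ES2 and 85.8 and 140 in H4, DMSO before GANT61. The GANT61 array was the higher one in both lines. The log2 ratios were 0.31 in ES2 (1.24-fold higher) and 1.34 in H4 (2.53-fold higher). FOSB was detected on 1 H4 array, and the bound there was at least 1.08-fold on the authors' scale (1.19-fold on the normalized scale). Without background correction the H4 ratio was 0.78, so the 2-fold mark rests on that correction. Its promoter window is shown because, like those of EGR1, FOS, FOSL2, JUND and EGR2, it holds the cAMP response element core TGACGT, in capitals, here 60 bases before the start site (plus strand, chr19:45467746-45468045, GRCh38.p14).
FOSB: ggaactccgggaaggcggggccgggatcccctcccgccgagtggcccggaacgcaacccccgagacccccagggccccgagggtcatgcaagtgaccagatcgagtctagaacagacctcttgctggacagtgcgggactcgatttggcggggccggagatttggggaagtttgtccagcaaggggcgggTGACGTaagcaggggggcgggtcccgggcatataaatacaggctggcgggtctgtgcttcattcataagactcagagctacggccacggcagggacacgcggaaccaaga

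FOS, the founding partner of AP-1, was detected in ES2 alone. Its intensity was 134 with DMSO and 104 with GANT61 in ES2, a log2 ratio of -0.38 (1.30-fold lower), beside 102 and 82.2 on the H4 arrays, where neither passed detection. FOS thus went the same way as EGR1 in ES2 and ranked 467 from the lowest of 16505 probes.  FOSL2, which encodes Fra-2, had 87.5 and 87.3 in ES2 and 107 and 115 in H4, below detection throughout.

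JUN, the main partner of FOS proteins and the target of the JNK kinases, differed in opposite directions in the lines. Its intensity was 1720 with DMSO and 1466 with GANT61 in ES2, and 763 with DMSO and 969 with GANT61 in H4. The GANT61 array was thus the lower one in ES2 and the higher one in H4. The log2 ratios were -0.21 (1.16-fold lower) and 0.36 (1.28-fold higher), sizes of 1.46 and 1.61 times the SD between probes. That SD leaves out differences between cultures or arrays, and neither ratio came near 2-fold. The direction held under all scalings, with ratios of -0.23 to -0.20 in ES2 and 0.34 to 0.36 in H4. These directions, lower in ES2 and higher in H4, were shared by 24.1% of the 10229 genes measured in both lines. The JUN window (minus strand, chr1:58783998-58784297, GRCh38.p14) is shown because JUN is known to act on its own promoter through the variant elements TTACCTCA and TGACATCA, which stand in capitals and start 186 and 67 bases before the start site.
JUN: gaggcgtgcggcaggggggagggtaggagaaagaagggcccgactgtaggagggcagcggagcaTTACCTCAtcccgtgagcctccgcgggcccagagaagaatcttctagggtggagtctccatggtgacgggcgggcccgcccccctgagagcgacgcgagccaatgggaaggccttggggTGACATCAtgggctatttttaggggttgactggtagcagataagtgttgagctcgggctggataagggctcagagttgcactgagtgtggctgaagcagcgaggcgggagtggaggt
These elements occur in 0.715% and 2.61% of all windows, and in no window of another member.

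JUND, the JUN family protein associated with quiescent cells, had more signal in H4. Its intensity was 1954 and 1918 in ES2 and 4688 and 5867 in H4, DMSO before GANT61. Both H4 arrays lay above both ES2 arrays. The log2 ratio was -0.03 in ES2 and 0.35 in H4 (1.27-fold higher), and the DMSO level was 3.43-fold higher in H4, a log2 difference of 1.78 that was 1.26 on the authors' scale and 0.81 with median scaling. JUNB, which can restrain JUN, had 98.0 and 87.1 in ES2, where it was detected on 1 array and its bound was at least 1.11-fold lower on the authors' scale (1.12-fold on the normalized scale), and 116 and 104 in H4, below detection. Of the 5 member probes detected in H4, 4 had a ratio above 0, all of them AP-1 genes, and EGR1 was below. Over all detected H4 genes, 5244 of 11546 were above 0. In ES2, 6 of the 7 detected were below 0, with FOSB the exception, beside 6014 of all 12213 detected genes. FOSB and FOSL1 were counted in H4 on 1 array each, taken to be the brighter, while FOS (-0.55) and JUNB (-0.28) there fell below detection. The H4 count and median thus depend in part on the detection filter. The median log2 ratios were -0.19 in ES2 and 0.36 in H4, against 0.01 and -0.05 over all detected probes.

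**Figure D3:**
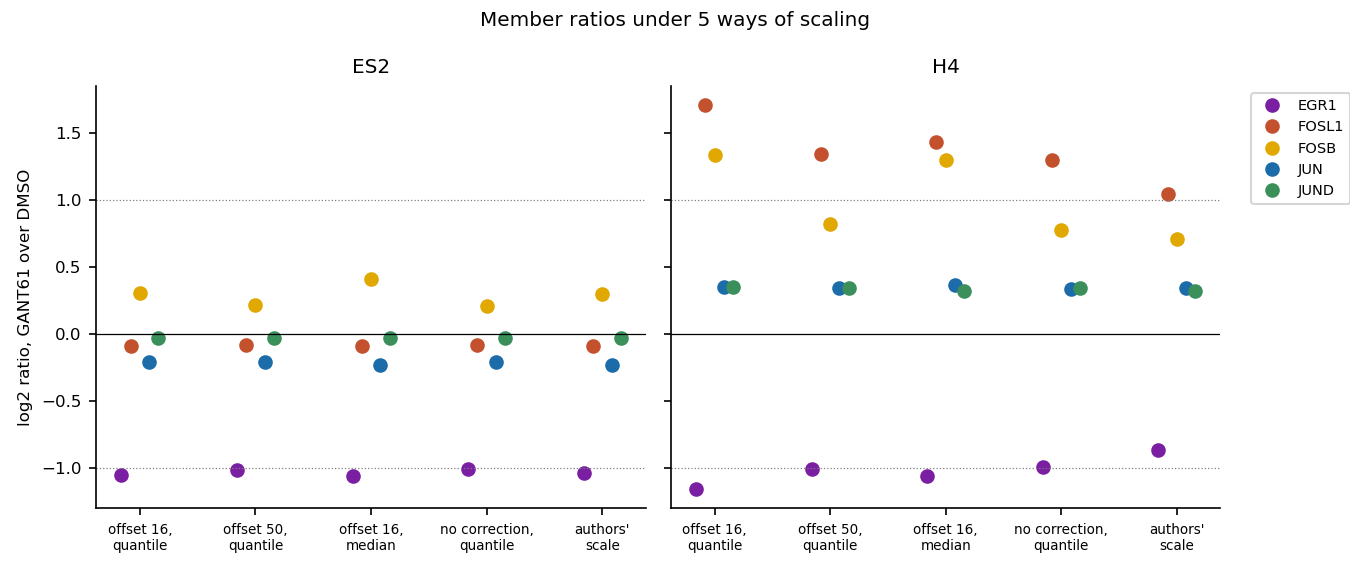
Log2 ratios of GANT61 over DMSO (vertical axis) of the 5 members detected in both lines, under 5 ways of correcting background and scaling the arrays (horizontal axis); dotted lines mark 2-fold. No point changes side of 0, and in H4 EGR1 moves from -1.16 to -0.87 and FOSB from 1.34 to 0.71.

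By the 4 log2 signals, each centred on its gene's own mean, the genes most like JUN among 8816 detected on all arrays were RPUSD1, CDC42EP2 and LRSAM1, at root mean square distances of 0.02 to 0.03. Those most like JUND were RBPJ, ATP6AP1 and PRRG1, at 0.03 to 0.05. EGR1 had no such close neighbour, and the nearest were CPNE1 at 0.31, NFIB at 0.38 and NAA38 at 0.39. The brightest CPNE1 probe had log2 ratios of -0.46 in ES2 and -0.52 in H4, but the probes of CPNE1 disagreed, and another had -0.14 and 0.02.

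Most other immediate early genes lay on the opposite side from EGR1 in H4. For this list of 51 genes, 43 were detected in H4, of which 39 had a ratio above 0, 21 (48.8%) were at least 2-fold higher and 0 were lower by that much. The median was 0.95 (0.94 at the bounds), against -0.05 over all 11546 detected genes. Of all 11546, 5244 were above 0, 4.07% passed 2-fold upward and 3.51% downward. Some of the 21 were detected on 1 H4 array and fell short of 2-fold at their bound. On the authors' scale and with median scaling the count was 16 in place of 21. CCN1 and CCN2, matricellular proteins, were 10.5-fold and 8.11-fold higher in H4. IER3 was 7.91-fold higher, PLAUR, the urokinase receptor, 5.87-fold, and DUSP1, a phosphatase of MAP kinases, 5.03-fold. The vasoconstrictor peptide gene EDN1 was at least 3.09-fold higher and the EGF-type ligand HBEGF at least 1.80-fold higher on the authors' scale, and these bounds were 5.41-fold and 2.69-fold on the normalized scale. MAFF, a small MAF protein, was 5.40-fold higher by its brightest probe.

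In ES2 most genes of that list lay below 0, at a small size. Of 41 genes detected, 31 were below 0, beside 6014 of all 12213 detected genes. Of the 41, 0 passed 2-fold (0.0737% of all detected genes did) and the median was -0.11, against 0.00 over all detected genes. The lowest was PPP1R15A, which recruits a phosphatase of eIF2α, with a log2 ratio of -0.74, and it was 3.35-fold higher in H4 (chosen after its values were seen). Among the 37 measured in both lines, 29 (78.4%) were above 0 in H4 and below 0 in ES2, beside 24.1% of all 10229 genes. ID1 was the 1 gene of the 37 below 0 in both lines, with -0.11 in ES2 and -0.29 in H4.

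**Figure D4:**
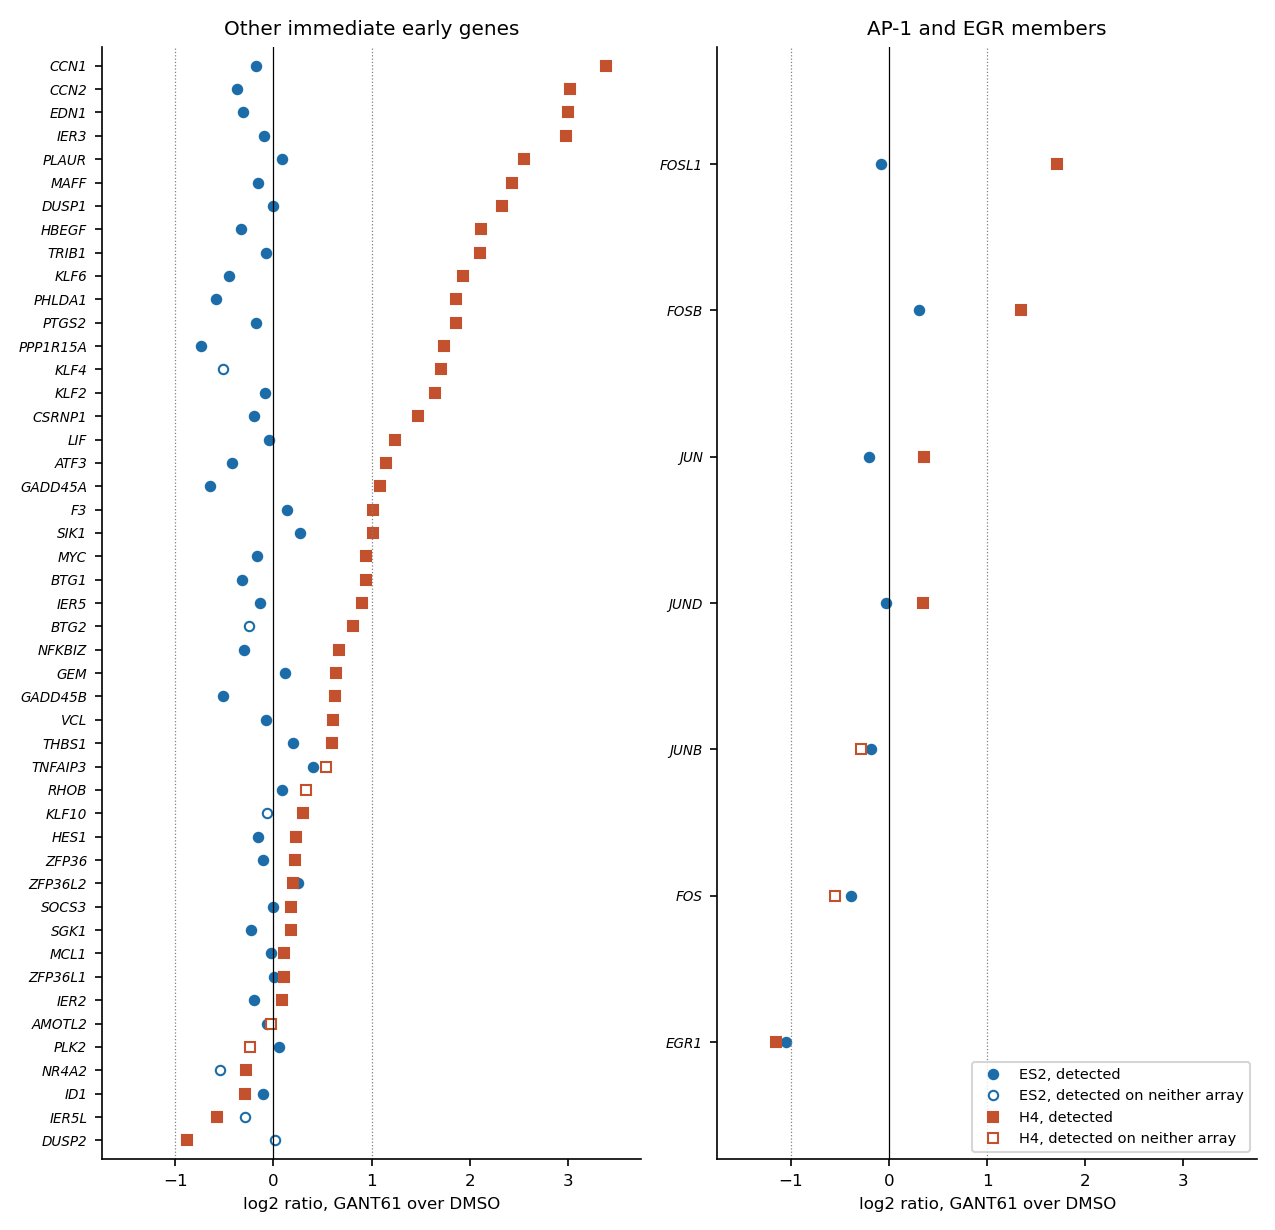
Log2 ratios of GANT61 over DMSO (horizontal axis) in ES2 (circles) and H4 (squares) for other immediate early genes (left) and for the members detected on at least 1 array (right), ordered by the H4 ratio; open markers were detected on neither array of the line and dotted lines mark 2-fold. In the list on the left, 21 genes lie past 2-fold in H4 and 0 in ES2, whereas EGR1 lies past 2-fold on the lower side in both.

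Of 18 other basic leucine zipper genes, 12 were detected in H4, with 2 at least 2-fold higher (MAFF and ATF3), 1 lower (MAF) and a median of 0.26, where the shares over all genes were 4.07% and 3.51%. In ES2 9 were detected, 0 passed 2-fold and the median was -0.15. MAFF and ATF3 also stand in the immediate early list. ATF3, a stress-induced partner of JUN, had intensities of 129 and 97.2 in ES2 and 472 and 981 in H4, DMSO before GANT61. Its log2 ratios were -0.43 in ES2 and 1.15 in H4 (2.21-fold higher). ATF2, another JUN partner, had 0.09 and -0.53. JDP2, which represses AP-1, had 0.03 in ES2 and was at least 1.17-fold higher in H4 on the authors' scale (1.38-fold on the normalized scale). MAF was 2.08-fold lower in H4 and below detection in ES2.

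Serum response factor, SRF, had a log2 ratio of 0.01 in ES2 and 0.45 in H4 (1.36-fold higher). With its cofactors, 4 of 7 genes were detected in ES2 (median -0.11) and 2 in H4 (median 0.33), with 0 past 2-fold in either line. Of 27 ERK, JNK and p38 pathway kinases, 23 were detected in H4 with a median of 0.15, and 3 were at least 2-fold higher, beside 4.07% of all genes. These were MAP2K3, which activates p38 (3.92-fold), MAP2K1, which activates ERK (2.82-fold), and the ribosomal S6 kinase RPS6KA2 (2.87-fold). For MAP2K3 the brightest probe had a log2 ratio of 1.97, and the next brightest had 1.19. In ES2 24 kinases were detected, with a median of -0.04 and 0 past 2-fold.

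Genes reported elsewhere as AP-1 targets were mostly higher in H4. Of 30, 24 were detected there, 13 were at least 2-fold higher and 1 lower (all genes 4.07% and 3.51%), and the median was 1.02. The cyclin CCND1 was 6.95-fold higher, the chemokine CXCL8 6.48-fold, the cytokine IL6 5.25-fold, the cyclooxygenase PTGS2 3.63-fold and the cytokine IL11 3.01-fold. DCN, the proteoglycan decorin, was at least 1.70-fold lower on the authors' scale (2.37-fold on the normalized scale). PLAUR, LIF and PTGS2 stand in this list and in the immediate early list. In ES2 20 were detected, with a median of -0.07, and 1 passed 2-fold, as did 0.0737% of all genes. That gene was MMP3, with intensities of 145 and 300 in ES2 and 191 and 325 in H4, DMSO before GANT61, and ratios of 2.18-fold and 2.07-fold higher.

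Genes reported as EGR targets went both ways. In H4, 17 of 29 were detected, 8 above 0 and 9 below (5244 and 6291 of all 11546 detected genes), with a median of -0.12. That median was above 0 at a detection p under 0.05 (0.13) and as a mean of probes (0.18). The 4 at least 2-fold higher were DKK1, which blocks WNT co-receptors (14.6-fold), the stress cytokine GDF15 (9.94-fold), the adhesion receptor CD44 (2.06-fold) and tissue factor, F3 (2.03-fold). The 2 at least 2-fold lower were SNAI2, a repressor of epithelial genes (2.17-fold), and ID3, an inhibitor of basic helix-loop-helix factors (2.08-fold). Of all genes, 4.07% were that much higher and 3.51% that much lower. In ES2, 18 were detected, 11 of them above 0 (6181 of all 12213 detected genes), with a median of 0.06 and 0 past 2-fold. Among the 15 measured in both lines, 4 were below 0 in both, as EGR1 was, a share of 26.7% beside 25.3% of all genes.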

How the data were processed

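Biotinylated cRNA made from total RNA was, per the labels' protocols, hybridized to an Illumina HT BeadChip V4 and scanned. The array software is not given in the sources used here. The authors' deposited value table holds 1 linear intensity per probe and array. Its sorted values nearly coincide within a line, as after a quantile normalization of each line on its own. A second deposited table gives, per the file headers, gene names and a detection p-value per array; its 4 signal columns name no treatment and were not used.

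Intensities were background-corrected with normexp (offset 16, saddle method), then quantile-normalized across the 4 arrays and taken to log2 in R 4.3.3 with limma 3.58.1. The offset pulls ratios of dim probes toward 0. The design had no test, since each line and treatment has 1 array. A probe detected on 1 array of a line is given a bound, its dimmer array being set to the floor, the lowest signal among probes detected on both arrays, wherever it fell under it. The same bound on the authors' scale was added after seeing the data. It was taken to be the brighter array that detected it. For the other lists, a gene is its brightest probe, named through RefSeq (GRCh38.p14, which also gave the promoter windows). The steps were tested on simulated data, with fold changes planted in bright probes alone. Recovery was not tested at the H4 levels of EGR1, FOSL1 and FOSB. The members and gene lists were chosen with earlier results of these data known. Outside the members, the text names list genes at least 2-fold different in a line (up to 8 per list) and EGR4, NAB1, NAB2, SRF, ATF2, ATF3 and JDP2. It also names, for each member detected on all arrays, the 3 genes nearest by root mean square distance. Of the genes this rule names, 1 is not reported here. Further cases are marked as chosen after their values were seen. Alternatives were no background correction, an offset of 50, median scaling, the authors' scale, a detection p-value under 0.05, no detection filter and the mean of detected probes.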

Additional observations from a re-analysis of the deposited data

Results flagged for a closer look

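JUN went opposite ways in the lines, with the H4 log2 ratio exceeding the ES2 one by 0.565 (0.36 against -0.21). Of all 10229 genes measured in both lines, 24.1% were likewise above 0 in H4 and below 0 in ES2. Each JUN ratio was larger than the SD between probes of a gene in its line (0.222 in H4 and 0.143 in ES2), which does not measure variation between cultures. The difference was not tested, because each line has 1 array per treatment.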

How the results depend on the processing

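No paired analysis was possible because the arms compared, those of a line, share 1 replicate number and hold 1 array each. A fit over both lines with line as a block, which would take their responses as equal, was not run. No member ratio that passed 2-fold changed sign under any alternative run. In ES2 the count of 1 member at least 2-fold different held under all 6. In H4 the count of 3 became 1 without background correction and on the authors' scale, with 1 higher and 0 lower, and with an offset of 50 the higher count was 1. Leaving out an array was not possible, since each arm has 1. The H4 ratios that moved by more than the spread between probes were those of FOSB (0.778 without correction, 0.823 with offset 50, 0.709 on the authors' scale), FOSL1 (1.30, 1.35 and 1.04, and 1.44 with median scaling) and EGR1 (-0.866 on the authors' scale). The cause was not tested.

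Differences between the DMSO arrays (H4 minus ES2, log2) moved more. Without correction they were -0.754 for FOS, -0.651 for FOSB, -4.30 for FOSL1 and 0.217 for the first EGR3 probe. With offset 50 they were -0.792, -0.690, -4.37 and 0.177. With median scaling they were -1.43 for FOS, -5.42 for FOSL1, -2.77 for EGR1, -1.70 for JUN, 0.809 for JUND and 0.023 for that EGR3 probe. On the authors' scale they were -0.390 for FOS, -0.196 for FOSB, -4.29 for FOSL1, -1.17 for JUN, 1.26 for JUND, 0.246 for JUNB, 0.297 for FOSL2, 0.471 for EGR2 and 0.432 for the second EGR3 probe. The last 4 turned from below 0 to above 0, and no direction is read from them, nor from any value of FOSL2, EGR2 and EGR3, which no array detected.

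Of 196 values for the other lists, 187 held. The median of other immediate early genes in H4 was 0.662 on the authors' scale and 0.666 without a detection filter. The AP-1 targets past 2-fold in ES2 were 0 without correction and with offset 50. The EGR targets' median in H4, below 0 as reported, was 0.135 at a detection p under 0.05 and 0.183 as a mean of probes. Without a filter, the medians were 0.0771 in ES2 and -0.161 in H4 for EGR4 and the co-repressors and -0.0335 in H4 for SRF and cofactors. FOSB and FOSL1 were each detected on 1 H4 array, so their H4 ratios are read as bounds.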
